A study of Mus musculus with 9 samples.

Results

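Osteocrin (Ostn, also called musclin) is a small secreted peptide made by skeletal muscle and bone. It was examined here with the 3 natriuretic peptide receptors, Npr1, Npr2 and Npr3. The set was chosen by the deposited values of Ostn, which had been seen to lie far lower in both knockouts than in control in these same data, and the receptors were added by name. All 4 genes were found, among 13179 genes in the deposited table, and all 4 passed the filter on low values, which 13137 genes passed.

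The study measured polyA RNA by RNA sequencing in mouse gastrocnemius, a calf muscle rich in fast fibres, from mice kept for 6 weeks on a high-fat diet. There were 3 libraries in each of 3 groups: mice labelled control, mice labelled p38alphaMCK-KO (p38α KO below) and mice labelled p38alpha/gammaMCK-KO (p38α/γ KO below). The targeted kinases p38α and p38γ are encoded by Mapk14 and Mapk12, and MCK names the muscle creatine kinase promoter, which is commonly used to drive Cre in striated muscle. All 3 groups ate the high-fat diet. The labels give no age or sex, do not say whether controls carried Cre, and do not say whether each library came from a separate mouse. The p-values therefore measure only the spread between these libraries.

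Natriuretic peptides act through 2 receptor guanylate cyclases and 1 clearance receptor. Npr1 binds the atrial and brain peptides and Npr2 the C-type peptide, and both make the messenger cGMP when bound. Npr3 lacks the cyclase domain, takes the peptides out of circulation and couples to inhibitory G proteins. Osteocrin resembles the natriuretic peptides in part of its sequence and is known to bind Npr3, which leaves more natriuretic peptide for the cyclase receptors.

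The resemblance can be read in the coding sequences, which are shown because they are the link between a muscle peptide and these receptors. Each line gives 30 bases of the coding strand in GRCm38, read through GENCODE M21 gene models. Capitals mark the codons for phenylalanine and glycine and, after any 3 codons, those for aspartate and arginine.
Ostn, first copy: ggcTTTGGGtctccccttGACAGActctca
Ostn, second copy: cggTTTGGTattcccatgGATCGGattggt
Nppb: tgcTTTGGGcacaagataGACCGGatcgga
Nppc: tgcTTTGGCctcaagctgGACCGGatcggc

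Both Ostn copies are exonic coding sequence on the plus strand, the first in exon 3 of 5 at chr16:27324670-27324699 and the second in exon 4 at chr16:27346896-27346925. Their capitals start at codons 84 and 113 of 130. The matches in Nppb and Nppc, the genes of the brain and C-type peptides, lie at chr4:147986464-147986493 (+) and chr1:86669688-86669717 (-), each in exon 2 of 3. In both of these genes the codon just before the capitals is tgc, for cysteine, and in the Ostn copies it is ggc or cgg. The capitalised pattern was searched in frame on the coding strand of 21562 mouse genes. It occurred in 59 of them, or 0.274%, and 2 or more times in 2 genes. The match describes the letters only and measures no binding. RNA of Nppb and Nppc was not analysed here.

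The deposited values are normalised counts per gene, and "value" below means that number. If the smallest step between values in a library is taken as 1 read, the libraries held between 23820968 and 27944409 reads. Mapk14 averaged 149.5 ± 7.01 in control, 43.2 ± 2.63 in p38α KO and 44.8 ± 9.03 in p38α/γ KO (SD, n = 3 each, as throughout). Mapk12 averaged 143.3 ± 7.74, 101.5 ± 4.46 and 33.2 ± 2.18 in the same order. Each of the 4 members overlaps an annotated noncoding gene on the opposite strand, and whether strand was used in counting is not given in the sources used here, so reads of the partners cannot be told apart. All 10 markers of fast and general muscle fibres were present, with summed values of 177874 to 193188 in control, 107514 to 160973 in p38α KO and 133235 to 138317 in p38α/γ KO. Library 1 of p38α KO stood apart in the comparison of the knockouts: without it, the number of genes called different between them went from 58 to 1872. Against control, calls in p38α KO went from 2332 to 2343 without it and to 3257 without p38α KO library 3. Macrophage markers summed to 124.0 to 169.4 in control, 238.3 to 529.2 in p38α KO and 311.6 to 508.5 in p38α/γ KO, and 8 and 9 of 10 of them were higher in the respective knockouts. Of all tested genes, 7.32% and 11.2% were called higher. Of the 8 in p38α KO, Csf1r and Mrc1 did not pass without p38α KO library 1. Without control library 1, C1qb and Cd74 alone among the 8 passed. In that fit, calls over all genes in p38α KO went from 2332 to 852.

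Ostn (ENSMUSG00000052276) spans chr16:27307489-27351212 on the plus strand. Its values in control libraries 1 to 3 were 34.9, 30.8 and 20.0. In p38α KO they were 2.84, 4.02 and 3.68. The p38α/γ KO libraries gave 2.33, 1.62 and 1.21. Every control library was above every knockout library, and the lowest control stood 4.97 times above the highest p38α KO library and 8.59 times above the highest p38α/γ KO library. The control libraries themselves spanned a range of 1.74-fold.

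Group means of Ostn were 28.6 ± 7.67 in control, 3.51 ± 0.611 in p38α KO and 1.72 ± 0.567 in p38α/γ KO, or 12.3% and 6.03% of the control mean. The ratio of means was 8.12-fold lower in p38α KO and 16.6-fold lower in p38α/γ KO. On the log2(value + 1) scale, which shrinks changes of low genes, the differences were -2.68 and -3.43. These differences chose the gene, so no test of them is given. Among 13137 genes tested, Ostn ranked 8th from the lowest difference in p38α KO and 2nd in p38α/γ KO, and no gene lay further below control in both. Both comparisons use the same control libraries. In control muscle 69.7% of tested genes had a lower mean value than Ostn, against 20.9% in p38α KO and 9.71% in p38α/γ KO. These ranks use values per gene without a length correction.

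The depth behind the low values can be put in reads. Taking 1 step as 1 read, Ostn had 461 to 860 reads in control libraries, 77 to 103 in p38α KO and 29 to 66 in p38α/γ KO. The library with fewest, p38α/γ KO 3, held 29 reads with an exact Poisson 95% interval of 19.4 to 41.6, which covers counting error only. The knockout library with the most reads, p38α KO 3 with 103, had an interval of 84.1 to 125.0. By value the highest knockout library was p38α KO 2, at 4.02 and 99 reads. The lowest control library had an interval of 420 to 505.

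The direct comparison of the knockouts played no part in choosing the gene. Every p38α KO library was above every p38α/γ KO library, with 2.84 the lowest of the former and 2.33 the highest of the latter. The ratio of means was 2.04. On the log2(value + 1) scale the difference was 0.74 (SE 0.219, 95% interval 0.25 to 1.23, 1.67-fold), with an adjusted p of 0.217 in limma. An exact two-sided permutation test of these 6 values returned p = 0.1, which is the least it can reach with 3 a group. The difference did not pass the 0.05 threshold, which 0.442% of tested genes passed in this comparison in either direction. Without library 1 of p38α KO it did pass, at a limma adjusted p of 0.0385 for a difference of 0.85 (SE 0.230). In that fit the calls over all genes between the knockouts also went from 58 to 1872. With any other library left out it did not pass (limma adjusted p from 0.199 to 0.606).

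**Figure D1:**
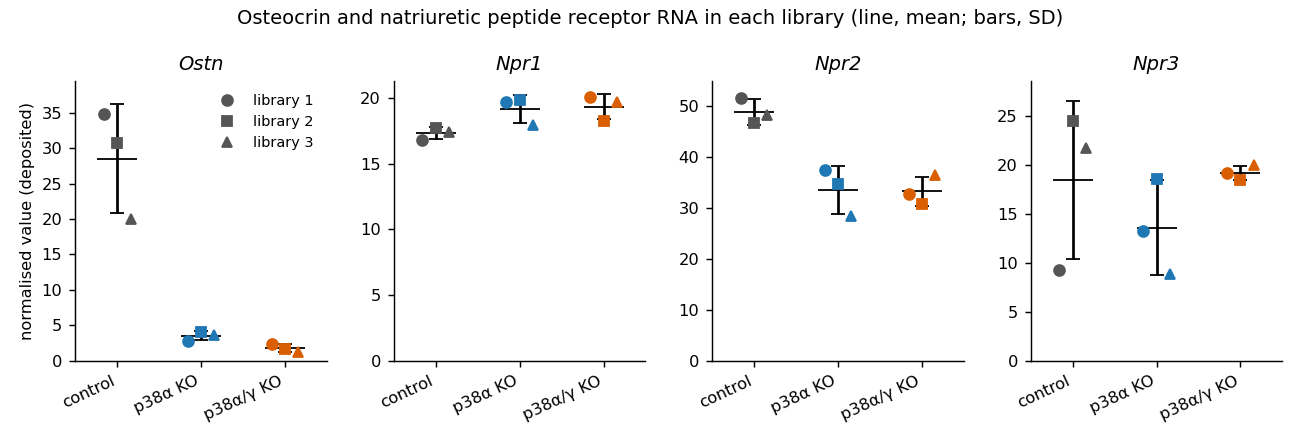
Normalised value (linear axis from 0) of Ostn, Npr1, Npr2 and Npr3 in each of the 9 libraries, by group; the horizontal line is the group mean and the bars are SD, n = 3. Ostn lies at 20.0 to 34.9 in control and at 4.02 or below in both knockouts, and Npr2 is lower in all 6 knockout libraries. Npr1 is slightly higher in all 6 but did not pass the limma test, and Npr3 overlaps between all groups.

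Of the 3 receptors, Npr2 was lower in both knockouts and neither Npr1 nor Npr3 passed the test in any comparison. Thus 1 of 3 receptors was called lower in each knockout, where 10.4% of tested genes were called lower in p38α KO and 14.4% in p38α/γ KO. None of 3 was called higher, where 7.32% and 11.2% of tested genes were. A muscle extract pools all cell types, so fewer cells of a type and less RNA per cell cannot be told apart.

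Npr2 (ENSMUSG00000028469, chr4:43631935-43651244, plus strand), the cyclase receptor of the C-type peptide, had values of 51.6, 46.7 and 48.2 in control. The p38α KO values were 37.4, 34.7 and 28.3, and the p38α/γ KO values 32.7, 30.7 and 36.4. The groups did not overlap with control, and the 2 knockout groups overlapped each other widely. The means were 48.8 ± 2.51, 33.4 ± 4.66 and 33.3 ± 2.87, so the knockouts held 68.5% and 68.1% of the control mean. In p38α KO, Npr2 fell by 0.54 on the log2(value + 1) scale (SE 0.114, 1.45-fold, adjusted p = 0.0136 in limma, 95% interval -0.79 to -0.29). In p38α/γ KO the fall on that scale was 1.46-fold, with a limma adjusted p of 0.012. Exact permutation tests over the 6 libraries of each comparison gave p = 0.1, the smallest possible.

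Between the knockouts the Npr2 difference was 0.00 (limma adjusted p = 0.995), and the 95% interval of -0.25 to 0.26 still allows a difference of about that size either way. Leaving out control library 1 ended the call in p38α KO (limma adjusted p = 0.0581) as did leaving out control library 3 (0.0511). In those fits the difference was -0.50 and -0.55, and all-gene calls in p38α KO went from 2332 to 852 and 837. The call in p38α/γ KO ended without control library 1 (limma adjusted p = 0.0514) or p38α/γ KO library 2 (0.0563). There the difference was -0.50 and -0.49, and all-gene calls in p38α/γ KO went from 3368 to 1107 and 859. Without p38α KO library 1, the p38α KO difference was -0.62 (limma adjusted p = 0.00488).

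Markers of smooth muscle and pericytes moved with Npr2. Their summed value over 10 genes was 831.0 to 956.1 in control, 671.4 to 732.2 in p38α KO and 641.9 to 718.5 in p38α/γ KO, with no overlap with control and none of the 10 at 0. Of all tested genes, 10.4% were called lower in p38α KO and 14.4% in p38α/γ KO. In p38α KO 2 of the 10 markers fell, Myh11 (smooth muscle myosin) and Rgs5 (a pericyte regulator of G protein signalling). Neither passed there with the replicate number as a block. Of 9 fits that each left out 1 library, Myh11 passed in 1, and not without p38α KO library 1, while Rgs5 passed in 5. There were 4 of 10 that fell in p38α/γ KO, these 2 with Abcc9 and Notch3, and with the replicate number as a block Notch3 did not pass. Of the 9 fits that each left out 1 library, Notch3 passed there in 2, Myh11 in 3, and Abcc9 and Rgs5 in 4 each. Rgs5, the most abundant of the 4, averaged 373.3 in control, 290.7 in p38α KO and 286.7 in p38α/γ KO. The fast fibre markers also had lower sums in both knockouts, with 1 of 10 called lower in each. These were Acta1 in p38α KO and Actn3 in p38α/γ KO, and neither passed with the replicate block. Markers of fibro-adipogenic progenitors went the other way, with 1 and 6 of 10 called higher, and sums of 1754 to 2274 in control, 1994 to 3114 in p38α KO and 2656 to 3640 in p38α/γ KO. The shares of all tested genes called higher were 7.32% and 11.2%. The part of any cell type in the Npr2 values was not tested.

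Npr1 (ENSMUSG00000027931, chr3:90450591-90465866, minus strand), the cyclase receptor of the atrial peptide, had the steadiest values. Control libraries gave 16.8, 17.8 and 17.4. The p38α KO libraries gave 19.7, 19.8 and 17.9, and the p38α/γ KO libraries 20.1, 18.2 and 19.7. All 6 knockout libraries were above all 3 controls, with 17.8 the highest control and 17.9 the lowest knockout value. The share of all tested genes that separate this way is not given here, for Npr1 or for other genes without overlap. The means were 17.3 ± 0.467, 19.2 ± 1.06 and 19.3 ± 0.961. The log2(value + 1) differences were 0.14 (95% interval -0.05 to 0.33, limma adjusted p = 0.282) and 0.15 (-0.04 to 0.34, adjusted p = 0.209). Exact permutation p was 0.1 in both, the smallest possible. Between the knockouts the difference was -0.01, with an interval of -0.20 to 0.18 and a limma adjusted p of 0.964. Endothelial markers, from cells where Npr1 is known to act, summed to 576.5 to 601.9 in control, 532.7 to 594.4 in p38α KO and 499.2 to 554.8 in p38α/γ KO, the p38α KO sums overlapping control. In that list 1 of 12 was called lower in p38α KO (Ptprb, not without p38α KO library 1) and 3 of 12 in p38α/γ KO, and the median differences were -0.04 and -0.01. The shares of all tested genes called lower were 10.4% and 14.4%. Ptprb passed in p38α KO in 1 of 9 fits that each left out 1 library. In p38α/γ KO the 3 that fell passed in 3 (Vwf), 4 (Ptprb) and 5 (Cdh5) of those fits. None of the 12 was at 0, and the part of endothelium in the Npr1 values was not tested.

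Npr3 (ENSMUSG00000022206, chr15:11839896-11907287, minus strand), the clearance receptor that binds osteocrin, varied most among libraries. Its control values were 9.26, 24.4 and 21.7, its p38α KO values 13.2, 18.5 and 8.87, and its p38α/γ KO values 19.1, 18.5 and 19.9. Control library 1 and p38α KO library 3 were the lowest, the p38α/γ KO libraries were the most even, and all 3 groups overlapped. Means were 18.5 ± 8.09, 13.6 ± 4.84 and 19.2 ± 0.735. The p38α KO difference was -0.37 (SE 0.329, 95% interval -1.10 to 0.37, limma adjusted p = 0.458). It was -0.78 without control library 1 (limma adjusted p = 0.0797), -0.12 without control library 2 or p38α KO library 3, and -0.21 without control library 3, none of which passed. The p38α/γ KO difference was 0.16 (95% interval -0.58 to 0.89, limma adjusted p = 0.743), and it was -0.25 without control library 1. Between the knockouts it was -0.53 (-1.26 to 0.21, limma adjusted p = 0.558). Both intervals against control still include a fall as large as that of Npr2.

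Adipocyte markers, 8 genes with none at 0, summed to 331.3, 626.7 and 533.2 in control libraries 1 to 3, so control library 1 was low in these markers as it was in Npr3. In p38α KO the sums were 423.4, 335.5 and 551.6, where the library with the most Npr3 had the least of these markers. In p38α/γ KO they were 463.5, 842.8 and 663.1 while Npr3 stayed between 18.5 and 19.9. Schwann cell markers were also low in control library 1, with sums of 101.3, 360.0 and 263.1 in control libraries 1 to 3. Their sums were 276.5, 119.7 and 244.4 in p38α KO and 257.7, 147.6 and 240.4 in p38α/γ KO. The part of adipocytes or Schwann cells in the Npr3 values was not tested.

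**Figure D2:**
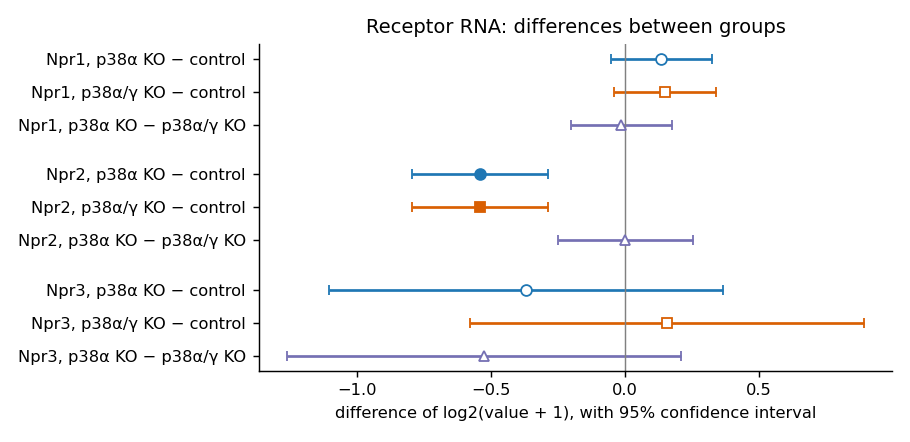
Difference between groups of log2(value + 1) for the 3 receptors, with 95% confidence intervals from the limma fit over 9 libraries; filled symbols passed an adjusted p of 0.05. The 2 Npr2 differences from control, at -0.54, are the filled ones, the Npr1 intervals are narrow around 0.14 and 0.15, and the Npr3 intervals are the widest.

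The 4 genes also differed in how closely libraries of a group agreed. The SD within groups on the log2(value + 1) scale was 0.0634 for Npr1, 0.142 for Npr2, 0.312 for Ostn and 0.502 for Npr3, against a median of 0.170 over all tested genes. Npr1 varied less than most genes, with 3.02% of genes below it, and Npr3 more than most, with 96.9% below it.

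Levels of different genes were compared per kilobase of annotated exon (1.423 kb for Ostn, 4.783 for Npr1, 4.667 for Npr2 and 9.389 for Npr3). In control the order was Ostn (20.1 ± 5.39 per kb), Npr2 (10.5 ± 0.538), Npr1 (3.62 ± 0.0976) and Npr3 (1.97 ± 0.861), and no neighbours in that order overlapped. With the longest transcript as the length, the lowest Ostn library (14.06) lay just under the highest Npr2 library (14.09), so that pair overlapped. In p38α KO it was Npr2 (7.17 ± 0.998), Npr1 (4.01 ± 0.222), Ostn (2.47 ± 0.429) and Npr3 (1.44 ± 0.516). There the lowest Ostn library, at 1.99, barely cleared the highest Npr3 library, at 1.97, and that pair too overlapped by the longest transcript. In p38α/γ KO Ostn came last at 1.21 ± 0.398, below Npr3 at 2.04 ± 0.0783, with Npr1 at 4.04 ± 0.201 and Npr2 at 7.13 ± 0.615. Ostn RNA was therefore the most abundant of the 4 per kilobase in control and the least in p38α/γ KO.

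The lists around the members held genes that cut, degrade or relay the peptides, genes reported to regulate osteocrin, and other secreted muscle factors. Of 62 such genes tested outside the 4 members, 5 rose and 5 fell in p38α KO, with a median log2(value + 1) difference of -0.06 where all tested genes had 0.01. In p38α/γ KO 9 rose and 5 fell, with a median of 0.05 against 0.02. With the replicate number as a block 3 fell there, and 13 fell without p38α KO library 1. Between the knockouts none passed, with a median of 0.02 against -0.01, and without p38α KO library 1 there were 3 higher and 5 lower in p38α KO than in p38α/γ KO. The shares that rose, 8.06% and 14.5%, stand beside 7.32% and 11.2% of all tested genes, and the shares that fell, 8.06% in each, beside 10.4% and 14.4%. The calls of Nos1, Gdf11 and Ide in both knockouts and of Ppargc1a in p38α KO held with each of the 9 libraries left out in turn, and every other call in these lists was lost in at least 2 of those 9 fits.

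Among 7 tested genes of peptide processing and degradation, 1 rose and 1 fell in each knockout. Of all tested genes, 7.32% rose and 10.4% fell in p38α KO, and 11.2% and 14.4% in p38α/γ KO. Ide, the insulin-degrading enzyme, which also cleaves the atrial peptide, had values of 169.1, 274.5 and 207.2 in control, 88.5, 117.7 and 129.5 in p38α KO and 109.9, 105.9 and 108.6 in p38α/γ KO. On the value + 1 scale it fell 1.92-fold (limma adjusted p = 0.00932) and 1.96-fold (0.00786), with no overlap with control. Pcsk5, a proprotein convertase, rose from 2.43 ± 0.178 to 4.68 ± 1.56 and 4.98 ± 0.876 (limma adjusted p = 0.034 and 0.018), the first call not holding without p38α KO library 1. Neprilysin (Mme), the other main degrading enzyme of these peptides, did not pass, at 6.43 ± 1.39, 6.29 ± 0.309 and 7.65 ± 1.26. Furin, which cleaves many prohormones, averaged 46.3, 45.2 and 40.1 and did not pass either.

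Of the 5 guanylate cyclases tested, Npr1 and Npr2 included, Npr2 was the one that fell, and none rose. Over all tested genes 10.4% fell and 7.32% rose in p38α KO, and 14.4% and 11.2% in p38α/γ KO. The 2 subunits of the nitric oxide receptor cyclase did not pass: Gucy1a1 averaged 12.2 ± 1.6, 9.66 ± 3.43 and 8.54 ± 0.958, and Gucy1b1 8.07 ± 0.690, 6.37 ± 2.37 and 5.13 ± 1.26. Nos1, the neuronal nitric oxide synthase that supplies that cyclase in muscle, had values of 83.7, 78.4 and 80.4 in control. It had 30.2, 32.2 and 32.7 in p38α KO and 35.3, 22.4 and 25.6 in p38α/γ KO. It fell by 1.32 (SE 0.141, limma adjusted p = 0.000934) and by 1.53 (limma adjusted p = 0.000538) on the log2(value + 1) scale. The other 2 nitric oxide synthases, Nos2 and Nos3, did not pass.

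Downstream of cGMP, 10 effectors were tested, of which 1 rose in p38α KO and a different 1 in p38α/γ KO. Over all tested genes 7.32% and 11.2% rose. Rgs2, a brake on G protein signalling that cGMP-dependent kinase activates, rose in p38α/γ KO from 4.90 ± 0.621 to 10.4 ± 0.491. The rise of Rgs2 was 1.94-fold on the value + 1 scale (limma adjusted p = 0.0163). Its p38α KO mean of 8.90 ± 3.84 did not pass (limma adjusted p = 0.0603). Cnga3, a cyclic nucleotide-gated channel subunit, rose in p38α KO from 1.0 ± 0.347 to 2.16 ± 0.462 (limma adjusted p = 0.0434). Prkg1, the cGMP-dependent kinase, averaged 8.68 ± 1.93, 6.11 ± 3.10 and 4.93 ± 0.780 and did not pass (limma adjusted p = 0.202 and 0.0773). None of 9 phosphodiesterases and none of the 3 inhibitory G protein genes that Npr3 can couple to, Gnai1, Gnai2 and Gnai3, passed. The Pde2a values, for a phosphodiesterase that cGMP stimulates, were 33.7 ± 4.51, 44.4 ± 5.92 and 38.1 ± 3.08.

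Among 9 genes reported as regulators or partners of osteocrin, Ppargc1a rose in both knockouts. It encodes PGC-1α, a coactivator of mitochondrial genes. Its values were 28.7, 30.4 and 23.7 in control, 41.1, 52.2 and 41.5 in p38α KO and 41.1, 37.7 and 41.3 in p38α/γ KO, with no overlap with control. On the value + 1 scale the rise was 1.60-fold (limma adjusted p = 0.00731) and 1.44-fold (0.0163). Foxo1, a transcription factor that insulin restrains, rose in p38α/γ KO from 36.7 ± 7.84 to 54.9 ± 5.11 (limma adjusted p = 0.0477), with 51.7 ± 12.7 in p38α KO (limma adjusted p = 0.111). Mef2c and Foxo4 fell in p38α KO, and Mef2a and the insulin signalling kinase Akt2 in p38α/γ KO. None of these calls held with the replicate number as a block. Mef2c, a muscle transcription factor, averaged 545.0 ± 11.4, 383.6 ± 95.4 and 419.8 ± 16.8, and Mef2a 128.6 ± 4.15, 109.6 ± 33.5 and 78.3 ± 9.04. No regulator differed between the knockouts past the threshold. Against control, 1 of the 9 rose and 2 fell in p38α KO, and 2 rose and 2 fell in p38α/γ KO. Over all tested genes 7.32% rose and 10.4% fell in p38α KO, and 11.2% and 14.4% in p38α/γ KO.

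Osteocrin stood among other secreted muscle factors, of which 18 were tested. In p38α KO 2 rose and 1 fell, and in p38α/γ KO 5 rose and 1 fell. Of all tested genes, 7.32% rose and 10.4% fell in p38α KO, and 11.2% and 14.4% in p38α/γ KO. Gdf11, a TGF-beta family ligand, was the one that fell in both, from 14.0 ± 3.11 to 3.73 ± 0.591 and 5.86 ± 2.0. On the value + 1 scale these falls were 3.14-fold (limma adjusted p = 0.00225) and 2.21-fold (0.00854). Angptl4, an inhibitor of lipoprotein lipase, rose in both, from 31.7 ± 2.62 to 48.0 ± 11.4 and 49.8 ± 1.64. Il15 rose in p38α KO alone past the threshold, from 5.93 ± 1.54 to 10.1 ± 2.09 (limma adjusted p = 0.0368, not passing without p38α KO library 1), with 6.92 ± 1.15 in p38α/γ KO, and the 2 knockouts did not differ past the threshold (limma adjusted p = 0.357). Metrnl, Igf1, Dcn and Ctsb rose in p38α/γ KO. Dcn is also one of the fibro-adipogenic markers above. Myostatin (Mstn), a brake on muscle growth, had values of 47.2, 54.5 and 51.7 in control, 7.30, 25.3 and 51.6 in p38α KO and 25.5, 15.5 and 19.2 in p38α/γ KO. It did not pass (limma adjusted p = 0.132 and 0.0833), and the p38α KO libraries spanned nearly its whole range.

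**Figure D3:**
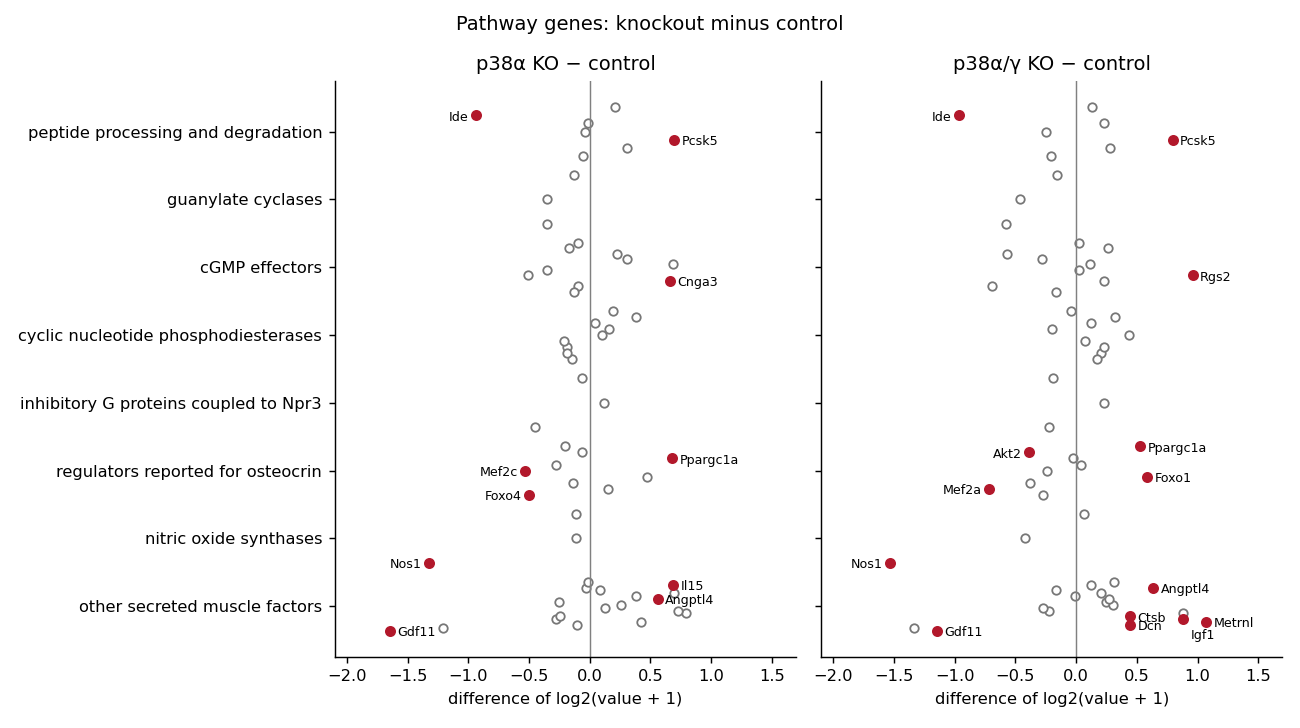
Knockout minus control difference of log2(value + 1) for the 62 tested genes of 8 lists, members left out; each point is 1 gene, and filled, named points passed a limma adjusted p of 0.05. Most points lie near 0, and Nos1, Ide and Gdf11 are the furthest below 0 among those that passed in both knockouts.

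The position of the members on the chromosomes was not used to choose them. Within 1 Mb of Ostn lie 3 tested genes. Ccdc50, 37.7 kb beyond the 3' end of Ostn and the nearest, averaged 96.0 ± 11.1 in control, 52.9 ± 2.90 in p38α KO and 55.0 ± 9.76 in p38α/γ KO. Its differences were -0.84 (limma adjusted p = 0.00493) and -0.80 (0.00598), and both calls held with each library left out in turn. Ostn was thus not the sole gene of that interval with lower RNA in the knockouts. Cldn1, 935.6 kb away on the other side, fell in p38α KO (limma adjusted p = 0.0278) but did not pass in p38α/γ KO, and Il1rap between them passed in neither.

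Around Npr2, 29 genes were tested, of which 3 rose and 3 fell in p38α KO and 2 rose and 2 fell in p38α/γ KO. Its nearest neighbours, Hint2 and Rgp1, did not pass. Around Npr1, 31 were tested, of which 3 rose and 4 fell in p38α KO and 8 rose and 4 fell in p38α/γ KO, and its nearest neighbours Ilf2 and Ints3 did not pass. Around Npr3, 11 were tested and none rose. Golph3 was the one that fell in p38α KO, and Golph3, Zfr, Drosha and 6030458C11Rik fell in p38α/γ KO. Sub1, the nearest to Npr3, did not pass. These counts stand beside 7.32% of all tested genes higher and 10.4% lower in p38α KO, and 11.2% and 14.4% in p38α/γ KO.

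The genes whose pattern over the 9 libraries was closest to that of Ostn were found by the root-mean-square difference of log2(value + 1), each gene taken relative to its own control mean, over 11966 genes. Pla2g7, which encodes a platelet-activating factor hydrolase, was closest, at 0.37. Its values were 101.2, 98.4 and 93.6 in control, 9.83, 14.5 and 14.5 in p38α KO and 13.4, 13.7 and 10.01 in p38α/γ KO. Pla2g7 had overlapping values in the 2 knockouts, while Ostn was lower in p38α/γ KO in every library. Rasd2 followed at 0.77, Htra4 at 0.80, Galnt2 at 0.89 and Pdpr at 0.94. Rasd2 averaged 108.6 ± 11.7, 30.4 ± 14.8 and 18.3 ± 3.50. Galnt2 averaged 70.7 ± 0.978 in control and ranged from 3.20 to 32.1 in p38α KO and from 2.60 to 24.8 in p38α/γ KO. Pla2g7 lies on chromosome 17, and the other 4 on chromosome 8, which holds 5.43% of the genes compared. Being close in pattern is a description of these libraries. With a pseudocount of 5, 3 of the 5 stayed among the closest, and without p38α KO library 1, 4 of 5. With that pseudocount Galnt2 and Pdpr of chromosome 8 dropped out. The genes that took their places, the targeted Mapk14 among them, lie on chromosome 17.

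**Figure D4:**
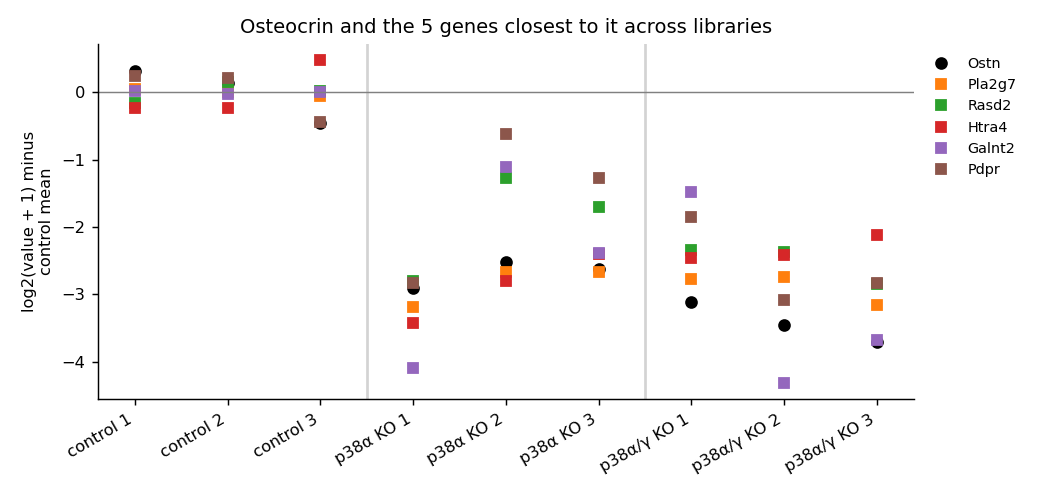
log2(value + 1) minus the control mean in each of the 9 libraries for Ostn (black circles) and the 5 genes closest to it (squares). All 6 genes are near 0 in control and below it in every knockout library, and Galnt2 and Pdpr spread most between libraries of one group.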

How the data were processed

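Gastrocnemius polyA RNA was sequenced as 51-base single reads from a stranded kit using 100 ng RNA of integrity above 8, per the labels' protocols. CASAVA 1.8, cutadapt, RSEM 1.3.1, limma and GRCm38 are named in the submitters' processing notes. The authors deposited 1 table of normalised counts, treated as a signal; the scaling is not given in the sources used here. Groups came from genotype labels. No count test was run, because the deposited signal is not raw counts.

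limma 3.58.1 (R 4.3.3) was fitted to log2(value + 1) over all 9 libraries with an intensity trend, for 13137 genes at 1 or more in at least 3 libraries, with Benjamini-Hochberg adjustment over all of them. The script was tested on simulated data. Alternatives changed the filter, pseudocount, scaling (TMM factors, quantile), libraries fitted, trend, weights and replicate block, and left out each library in turn. Replicate numbers were checked for pairing: correlations of deviations for p38α/γ KO with control were 0.111, 0.124 and 0.148. These are weak, so those numbers were treated as possibly paired, by the data and not the labels. The main fit used no pairing, and the replicate block was applied to the numbers of all 9 libraries. The other comparisons had at least 1 negative correlation. Of 13179 IDs, 13172 matched GENCODE M21. Named genes were the members, targeted genes, passing or central pathway genes, nearest or passing neighbours, markers moving with a receptor, and the 5 genes closest to Ostn. Furin, Mme, Prkg1, Pde2a, Mstn, Gucy1a1 and Gucy1b1 were named after their values were seen. Members and lists were chosen with earlier results of these data known. A further ligand sequence is not reported here.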

Additional observations from a re-analysis of the deposited data

How the results depend on the processing

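Across 20 alternatives each, Npr2 stayed below control in both knockouts, with limma adjusted p from 0.000694 to 0.0581 in p38α KO and from 0.000734 to 0.0563 in p38α/γ KO. With the replicate number as a block both Npr2 calls held (limma adjusted p = 0.0312 and 0.0286), and all-gene calls went from 2332 to 1555 in p38α KO, from 3368 to 2320 in p38α/γ KO and from 58 to 32 between the knockouts. The block left 3 pathway genes higher and 3 lower in p38α KO and 3 lower in p38α/γ KO, and among the other named genes it ended the calls of Acta1, Angptl4, Cldn1, Cnga3, Foxo4, Il15, Mef2c, Myh11, Pcsk5, Ptprb and Rgs5 in p38α KO and of Actn3, Akt2, Mef2a and Notch3 in p38α/γ KO. Ostn against control was -1.95 and -2.30 with a pseudocount of 5, and -2.999 and -4.07 with none, an alternative added after seeing the data. Array weights (gene-by-gene method) gave 0.97 for Ostn between the knockouts (limma adjusted p = 0.00994, where all-gene calls went from 58 to 3197) and 0.0173 for Npr1. With 1 library left out, Ostn between the knockouts ranged from 0.60 to 0.90, Npr1 from -0.0521 to 0.0316 and Npr2 from -0.0802 to 0.114. Against control, Npr2 then ranged from -0.62 to -0.43 in p38α KO and from -0.61 to -0.49 in p38α/γ KO, and Npr3 in p38α/γ KO from -0.25 to 0.40. The causes were not tested.

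Pathway counts depended on the setting. With a library left out, all-gene calls ranged from 837 to 3257 in p38α KO and from 859 to 5388 in p38α/γ KO. Genes higher in p38α KO, 5 as reported, numbered 3 with a mean of at least 5, 1 with only the 6 libraries compared, 13 with array weights and 1 to 11 with a library left out. Genes lower there, also 5, numbered 3 with quantile normalisation, 3 with 6 libraries, 12 with array weights and 3 to 7 with a library left out. In p38α/γ KO the 9 higher became 0 to 11 with a library left out, and the 5 lower became 15 with 6 libraries, 18 with array weights and 3 to 13 with a library left out, 13 being without p38α KO library 1. Between the knockouts, 8 higher and 6 lower were called with array weights, and 0 to 3 and 0 to 5 with a library left out, 3 and 5 being without p38α KO library 1. Within 0.5 Mb instead of 1 Mb, neighbours called went from 2 to 1 lower for Ostn in p38α KO and, in p38α/γ KO, from 8 to 5 higher for Npr1, from 2 to 1 lower for Npr2 and from 4 to 2 lower for Npr3. The reads inferred for Ostn in p38α/γ KO, 29 to 66, limit the precision of its level there.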
